A study of Homo sapiens with 24 samples.

Results

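Messenger RNA levels of 10 genes for receptor kinases and secreted growth factor binding proteins were examined in KYSE450, an established cell line of human oesophageal squamous cell carcinoma (ESCC). The genes were AXL, MERTK, MET, EPHA2, FGFR1, FGFR2, FGFR3, IGF1R, IGFBP3 and FGFBP1. They were taken by symbol from a list drawn up with earlier results of these data known, and all 10 were found once each among the 61251 genes of the deposited table. RNA sequencing covered 24 libraries in 4 groups of 6: chemoresistant DTP, chemoresistant, parental DTP and parental. DTP stands for drug tolerant persister, the state of a small share of tumour cells that live through a drug. The chemoresistant cells carry the title KYSE450DDP, and the labels do not explain that suffix. All 4 groups are labelled as wild type and untreated, with RPMI-1640 and 10% fetal bovine serum as the medium, so the drug, its dose and the exposure of the DTP groups are not stated. A chemoresistant line is 1 line set against 1 parental line, and the labels do not say whether the 6 libraries of a group were separate cultures. The p-values therefore measure only the spread between these libraries, which may be technical.

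Receptor tyrosine kinases sit in the cell membrane, bind an outside ligand, pair up, and phosphorylate each other and adaptor proteins on tyrosine. The signal runs mainly through the RAS and MAP kinase route and through PI3 kinase, which drive growth, survival and movement. AXL and MERTK are TAM receptors for GAS6, and MERTK also binds protein S. MET is the receptor of hepatocyte growth factor (HGF), EPHA2 binds ephrin-A ligands on neighbouring cells, FGFR1 to FGFR3 bind fibroblast growth factors (FGFs), and IGF1R binds insulin-like growth factors (IGFs). IGFBP3 holds IGFs in the fluid around cells, and FGFBP1 releases FGFs from the heparan sulfate that stores them. In carcinomas several of these receptors are known as alternative routes of survival signalling under drug treatment.

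Values are the deposited FPKM, fragments or reads scaled to gene length and library total. Library totals recovered from them ran from 14947379 to 37989445 reads, at which a count of 0 allows up to 0.079 to 0.201 CPM (reads scaled to library total), counting error only. Changes were tested with limma on log2(FPKM + 1) over 13729 genes, those whose mean was 1 FPKM or more in some group, with Benjamini-Hochberg adjustment and a threshold of 0.05. On that scale changes of scarce transcripts look smaller than they are, so ratios of mean FPKM are given too. Of the 10 genes, 9 were tested, while MERTK stayed under 1 FPKM in every group. All 8 squamous epithelial markers were at or above 1 FPKM in each group. Their summed levels were 5344 to 6325 FPKM in chemoresistant DTP and 4576 to 5381 in chemoresistant libraries. They were 2721 to 3329 in parental DTP and 4533 to 5019 in parental libraries. KRT5 and KRT6A, at means of 1163 and 782 FPKM in parental DTP cells, weigh most in the sum. In parental DTP against parental cells 3 of the 8 rose (TP63, DSG3 and SOX2) and 5 fell, where 45.8% of all tested genes rose and 19.7% fell. Of 8 fibroblast markers, 1 reached 1 FPKM in chemoresistant DTP, parental DTP and parental cells (COL1A1) and 4 did so in chemoresistant cells. Their summed level was 2.71 to 14.6 FPKM in chemoresistant DTP, 4.39 to 19.6 in chemoresistant, 1.70 to 6.19 in parental DTP and 3.23 to 7.82 FPKM in parental libraries. Of 8 leukocyte markers only LYZ reached 1 FPKM, in chemoresistant DTP cells, and CD3E was at 0 throughout. No endothelial or glandular marker did. Their part in the results was not tested. In bulk RNA, fewer cells with a transcript and less of it per cell cannot be told apart.

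Chemoresistant DTP library 2 stood apart from the other 5 of its group. Its log2 values deviated from the group mean by a root mean square of 0.2998, against 0.123 to 0.147 in the others. These deviations fell with gene length (Spearman rho -0.41 across genes, which are not independent replicates), against rho of 0.10 to 0.31 in the others. It held the lowest value of its group for MET, EPHA2, FGFR1, FGFR2, FGFR3 and IGF1R and the highest for FGFBP1. Values without it are given beside several of the results that it moves. The plot of FPKM by library shows all 10 genes in every sample.

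**Figure D1:**
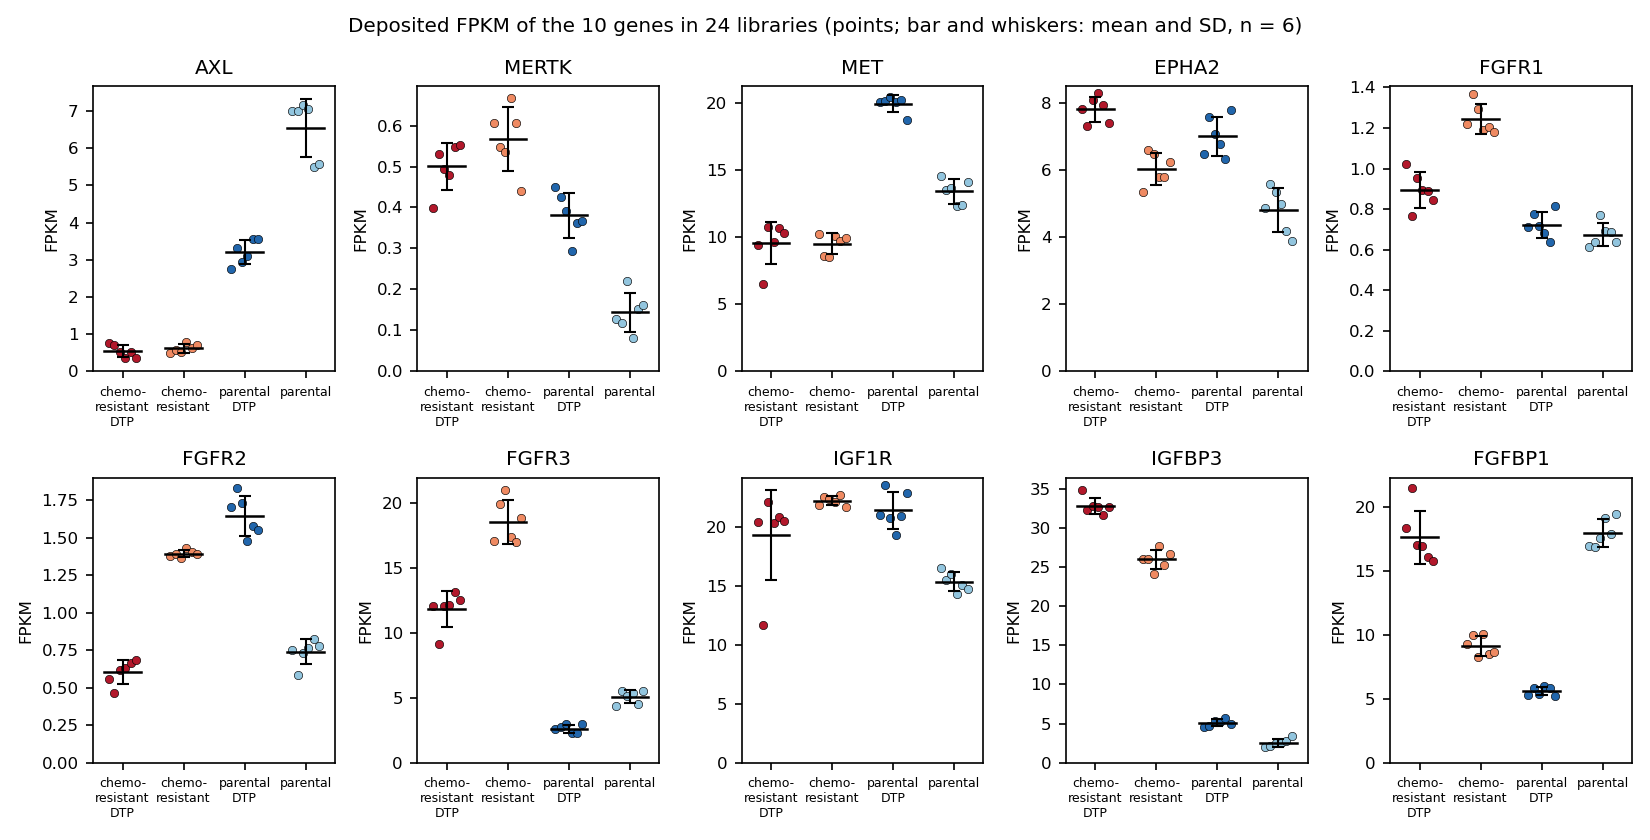
Deposited FPKM (y axis, linear, from 0, a scale of its own per gene) of the 10 genes in 24 libraries; points are single libraries and bars with whiskers are the mean and SD of 6. AXL is under 1 FPKM in all 12 chemoresistant DTP and chemoresistant libraries, IGFBP3 is above 24 FPKM in the same 12, and FGFBP1 is high in chemoresistant DTP and parental libraries.

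Each line was first compared in its DTP state with the line itself. In parental DTP against parental cells, 5 of the 9 tested genes rose (MET, EPHA2, FGFR2, IGF1R and IGFBP3), 3 fell (AXL, FGFR3 and FGFBP1) and 1, FGFR1, did not pass. Of all tested genes 45.8% rose, 19.7% fell and 65.5% changed in either direction. The 2 groups did not overlap for 8 of the 9 genes, and for 45.8% of all. In chemoresistant DTP against chemoresistant cells, 3 rose (EPHA2, IGFBP3 and FGFBP1), 3 fell (FGFR1, FGFR2 and FGFR3) and 3 did not pass (AXL, MET and IGF1R). Of all tested genes 20.5% rose, 27.4% fell and 48.0% changed, and the groups did not overlap for 6 of the 9 and for 27.8% of all.

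The 2 lines were then compared in each state. In chemoresistant against parental cells, 6 rose (EPHA2, FGFR1, FGFR2, FGFR3, IGF1R and IGFBP3) and 3 fell (AXL, MET and FGFBP1), where 48.2% of all genes rose, 29.4% fell and 77.5% changed. The groups did not overlap for 8 of the 9 and for 61.8% of all. In chemoresistant DTP against parental DTP cells, 4 rose (FGFR1, FGFR3, IGFBP3 and FGFBP1), 3 fell (AXL, MET and FGFR2) and 2 did not pass (EPHA2 and IGF1R). Here 29.5% of all genes rose, 32.3% fell and 61.9% changed, and the groups did not overlap for 6 of the 9 and for 36.2% of all. The 4 comparisons share groups and are not independent of each other.

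All genes together were shifted in some comparisons. The median log2 fold change over all tested genes was 0.14 in parental DTP against parental and 0.14 in chemoresistant against parental cells, but -0.02 in each comparison that has chemoresistant DTP cells on top. Relative log expression scaling brought the median to 0.00 in both comparisons with parental cells. Under it the counts were 5 rises and 3 falls in parental DTP against parental, and 5 rises and 3 falls in chemoresistant against parental cells, where EPHA2 no longer passed. No tested member of the set turned direction with that scaling among the changes that passed. Shares of all tested genes that rose or fell are given only without that scaling. Counts after it, here and below, therefore have no matching share beside them.

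**Figure D2:**
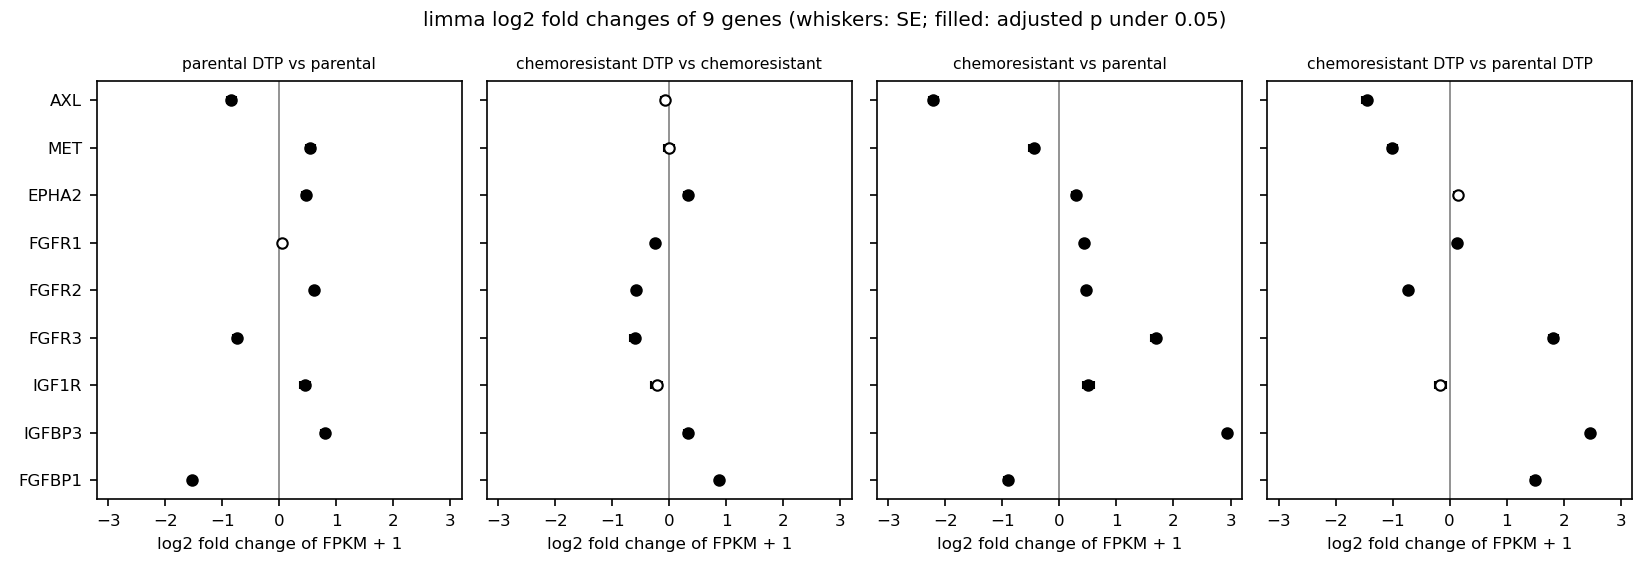
Log2 fold change of FPKM + 1 (x axis) with its SE as whiskers for the 9 tested genes (rows) in the 4 comparisons (panels); filled points have a limma adjusted p under 0.05. IGFBP3 has the largest rise and AXL the largest fall of the 9 in chemoresistant against parental cells, and FGFBP1 lies on opposite sides of 0 in the first 2 panels.

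AXL, a TAM receptor often tied to drug resistance in carcinomas, had the largest fall of the 9 tested genes in chemoresistant against parental cells. It spans chr19:41219203-41261766 on the plus strand of GRCh38. In chemoresistant DTP cells its lowest, median and highest values were 0.361, 0.523 and 0.756 FPKM, in chemoresistant cells 0.483, 0.605 and 0.793. The parental DTP libraries ran over 2.76, 3.21 and 3.55 FPKM, and the parental ones over 5.49, 6.99 and 7.16. Every library of the chemoresistant line, DTP or not, was below every library of the parental line, and parental DTP libraries lay between these and the parental ones.

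AXL averaged 0.618 ± 0.120 FPKM in chemoresistant and 6.54 ± 0.785 FPKM in parental cells (SD, n = 6 each), a ratio of 0.0945 and a log2 fold change of -2.22 (SE 0.08, adjusted p = 2.61e-18). Between the DTP groups it fell by 1.45 on the log2 scale (adjusted p = 2.92e-14), to 0.539 ± 0.166 FPKM in chemoresistant DTP against 3.204 ± 0.322 FPKM in parental DTP cells. It fell to 0.49 times the parental level in parental DTP cells (log2 fold change -0.84, SE 0.08, adjusted p = 1.02e-09). Within the chemoresistant line the DTP change was -0.08 (adjusted p = 0.433) and the libraries overlapped. The lowest group still held 385 reads of AXL over its 6 libraries.

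MERTK, the TAM receptor known for the uptake of dead cells by phagocytes, was scarce in every group and lowest in parental cells, where AXL was highest. It spans chr2:111898479-112029561 on the plus strand. In chemoresistant DTP libraries the lowest, median and highest values were 0.398, 0.512 and 0.552 FPKM, and in chemoresistant ones 0.440, 0.577 and 0.668 FPKM. They were 0.294, 0.379 and 0.449 FPKM in parental DTP, against 0.0823, 0.139 and 0.220 in parental libraries. Parental cells were below all other groups without overlap, while neighbours among the other 3 groups overlapped.

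Over 6 libraries MERTK had 327 reads in chemoresistant DTP, 354 in chemoresistant, 264 in parental DTP and 95 in parental cells, so single libraries rest on as few as 9 reads. As it missed the filter, its mean FPKM was compared by an exact two-sided permutation test over libraries, adjusted over the 4 comparisons. The difference was 0.238 FPKM in parental DTP against parental cells and 0.424 FPKM in chemoresistant against parental cells (exact p = 0.00216 in both, adjusted 0.00433, the smallest that 6 against 6 can give). It was 0.119 FPKM in chemoresistant DTP against parental DTP cells (exact p = 0.00649, adjusted 0.00866), with 5 of 6 libraries above all parental DTP ones. In chemoresistant DTP against chemoresistant cells it was -0.0670 FPKM (exact permutation p = 0.108).

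MET, the HGF receptor, was highest in parental DTP cells and lowest in both groups of the chemoresistant line. The gene spans chr7:116672390-116798386 on the plus strand. Its lowest, median and highest values were 6.52, 9.98 and 10.7 FPKM in chemoresistant DTP and 8.53, 9.82 and 10.3 FPKM in chemoresistant libraries. They were 18.7, 20.1 and 20.5 FPKM in parental DTP, against 12.3, 13.6 and 14.6 FPKM in parental libraries. Both parental groups lay above all libraries of the chemoresistant line, and the 2 groups of that line overlapped.

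MET rose to 19.9 ± 0.626 FPKM in parental DTP, against 13.4 ± 0.913 FPKM in parental cells (log2 fold change 0.54, SE 0.08, adjusted p = 2.07e-06). It averaged 9.56 ± 1.58 FPKM in chemoresistant DTP and 9.52 ± 0.767 FPKM in chemoresistant cells, a log2 difference of -0.01 (adjusted p = 0.951), or 0.09 (adjusted p = 0.152) without chemoresistant DTP library 2. Against parental cells it was lower in chemoresistant cells by a ratio of 0.709 (log2 fold change -0.46, adjusted p = 1.35e-05). Between the DTP groups the log2 fold change was -1.004 (adjusted p = 7.26e-11), or -0.91 (adjusted p = 2.64e-13) without chemoresistant DTP library 2.

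EPHA2, an ephrin receptor abundant in squamous cancers, rose in the DTP state of both lines. It spans chr1:16124337-16156087 on the minus strand. The lowest, median and highest values were 7.32, 7.87 and 8.28 FPKM in chemoresistant DTP and 5.35, 6.01 and 6.58 in chemoresistant libraries. They were 6.34, 6.92 and 7.79 FPKM in parental DTP and 3.88, 4.92 and 5.58 in parental libraries. Within each line, all 6 DTP libraries were above all 6 others, while the libraries of the 2 lines in the same state overlapped.

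The log2 fold change of EPHA2 was 0.33 in chemoresistant DTP against chemoresistant cells (SE 0.07, adjusted p = 0.000235) and 0.47 in parental DTP against parental cells (SE 0.07, adjusted p = 1.1e-06). Its rise in chemoresistant against parental cells, 0.28 (adjusted p = 0.000416), did not pass after relative log expression scaling (0.13, adjusted p = 0.132) or after correction for GC content (0.08, adjusted p = 0.128). Between the DTP groups the difference of 0.14 did not pass (adjusted p = 0.0682). It passed with only the 12 libraries compared (0.14, adjusted p = 0.0427) and with GC content corrected (0.11, adjusted p = 0.0461). It also passed without parental library 6 (0.14, adjusted p = 0.043), parental DTP library 2 (0.16, adjusted p = 0.0497) or parental DTP library 6 (0.17, adjusted p = 0.0347).

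The FGF receptors did not move as one. FGFR3, known as an oncogene of urothelial cancer, spans chr4:1793293-1808872 on the plus strand. The FGFR3 values (lowest, median and highest) were 9.11, 12.1 and 13.2 FPKM in chemoresistant DTP and 17.0, 18.1 and 21.0 FPKM in chemoresistant libraries. They were 2.26, 2.65 and 2.96 FPKM in parental DTP and 4.36, 5.26 and 5.49 FPKM in parental libraries. No 2 groups overlapped: the chemoresistant line was above the parental line, and within each line the DTP state was the lower.

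FGFR3 averaged 18.5 ± 1.67 FPKM in chemoresistant and 5.06 ± 0.5001 FPKM in parental cells, a ratio of 3.66 (log2 fold change 1.69, adjusted p = 6.16e-16). Between the DTP groups the ratio was 4.51 (1.82, adjusted p = 3.96e-16). The level fell to 11.8 ± 1.40 FPKM in chemoresistant DTP, 0.639 times that of chemoresistant cells (-0.61, adjusted p = 4.93e-07; -0.54 without library 2), and to 2.62 ± 0.313 FPKM in parental DTP, 0.518 times that of parental cells (-0.74, adjusted p = 8.84e-09).

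FGFR2, which in most epithelia is spliced to bind FGFs of the mesenchyme, changed in opposite directions. The gene spans chr10:121478334-121598458 on the minus strand. Its lowest, median and highest values were 0.467, 0.622 and 0.688 FPKM in chemoresistant DTP and 1.36, 1.39 and 1.43 FPKM in chemoresistant libraries. They were 1.47, 1.64 and 1.83 FPKM in parental DTP, against 0.587, 0.758 and 0.826 FPKM in parental libraries. So the DTP libraries of the parental line were all above the parental ones, and those of the chemoresistant line were all below the chemoresistant ones.

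The log2 fold change of FGFR2 was 0.60 in parental DTP against parental cells (SE 0.04, adjusted p = 1.38e-11; ratio of means 2.22) and -0.58 in chemoresistant DTP against chemoresistant cells (SE 0.04, adjusted p = 7.79e-11; ratio 0.433). Against parental cells it was higher in chemoresistant cells (0.46, adjusted p = 6.42e-10), and against parental DTP cells lower in chemoresistant DTP cells (-0.72, adjusted p = 3.39e-13). FGFR2 is spliced into isoforms with different ligands, which a value per gene does not separate.

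FGFR1, the FGF receptor typical of mesenchymal cells, was scarce in all groups. From lowest over median to highest the values were 0.767, 0.891 and 1.02 FPKM in chemoresistant DTP and 1.18, 1.21 and 1.37 FPKM in chemoresistant libraries. They were 0.637, 0.714 and 0.817 FPKM in parental DTP and 0.614, 0.664 and 0.769 FPKM in parental libraries. Chemoresistant cells stood above the other 3 groups without overlap, and parental DTP and parental libraries overlapped.

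Set against parental cells, FGFR1 was higher in chemoresistant cells by a ratio of means of 1.85 (log2 fold change 0.42, adjusted p = 8.1e-10). It fell in chemoresistant DTP against chemoresistant cells (-0.24, adjusted p = 1.91e-05) and was higher in chemoresistant DTP than in parental DTP cells (0.14, adjusted p = 0.00487). In parental DTP against parental cells the value was 0.04 (adjusted p = 0.355).

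The make-up of the FGF receptor transcripts was set out with FGFR4, which is no member of the set. The deposited FPKM of FGFR2 were divided by a gene length of 18813 bases, 2.48 times the 7578 bases of its exons in GENCODE 29, and those of FGFR1 by 17201 bases, 1.24 times 13842. For the other 8 genes this ratio was 0.97 to 1.03. Levels of FGFR1 and FGFR2 against other genes therefore depend on the gene model, as do their log2 fold changes of FPKM + 1, while a ratio of mean FPKM is the same for any length. Which reads another gene model would count was not tested. Per deposited FPKM, FGFR3 made up 57.2 ± 3.28% of FGFR1 to FGFR4 in chemoresistant DTP, 63.8 ± 1.64% in chemoresistant, 23.3 ± 1.49% in parental DTP and 30.6 ± 2.13% in parental cells. FGFR4 made up 35.5 ± 3.60% in chemoresistant DTP, 27.0 ± 1.58% in chemoresistant, 55.7 ± 2.29% in parental DTP and 60.8 ± 2.37% in parental cells. The leading FGF receptor transcript was thus FGFR3 in the chemoresistant line and FGFR4 in the parental line, as it also was per GENCODE 29 length. The share of FGFR2 was 2.92 ± 0.227% in chemoresistant DTP, 4.83 ± 0.421% in chemoresistant, 14.7 ± 1.44% in parental DTP and 4.52 ± 0.742% in parental cells. Per GENCODE 29 length it was 6.88% in chemoresistant DTP, 11.1% in chemoresistant, 29.6% in parental DTP and 10.4% in parental cells, so it was highest in parental DTP cells on either length.

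**Figure D3:**
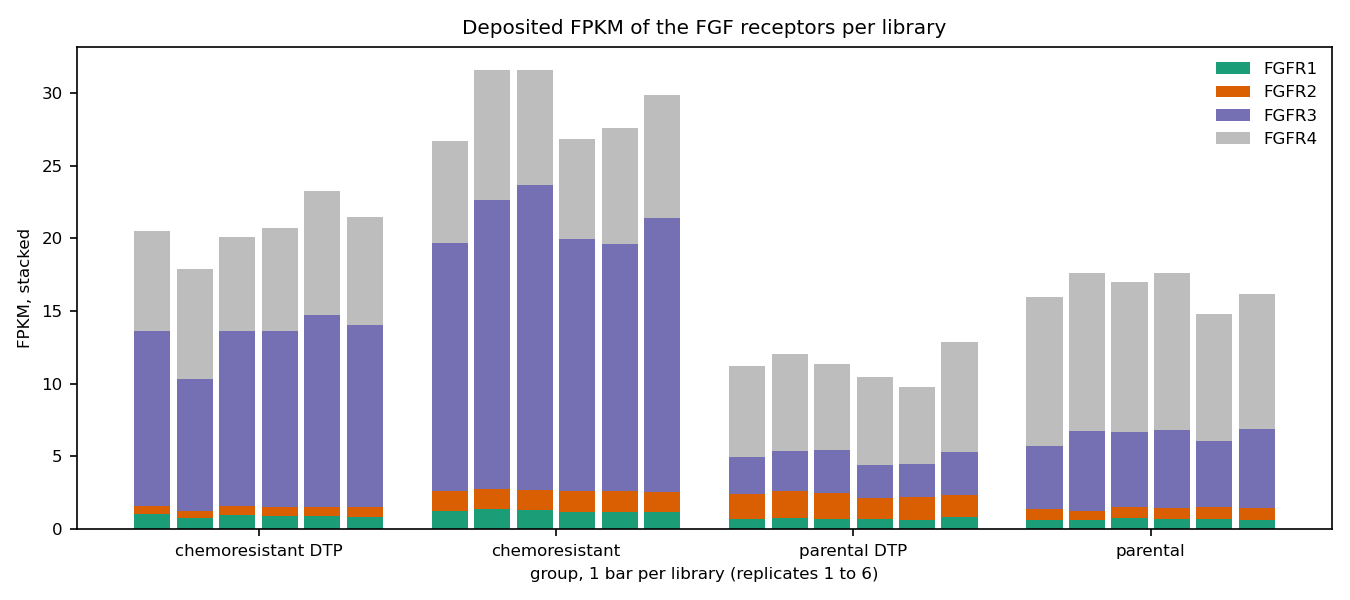
Deposited FPKM of FGFR1, FGFR2, FGFR3 and FGFR4 stacked per library (y axis, linear, from 0), 6 bars per group in replicate order. The summed level averages 20.6 FPKM in chemoresistant DTP, 29.01 in chemoresistant, 11.3 in parental DTP and 16.5 in parental cells; FGFR3 is the largest block in the chemoresistant line and FGFR4 in the parental line.

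IGF1R, the receptor through which IGFs drive PI3 kinase, was lowest in parental cells. It spans chr15:98648539-98964530 on the plus strand. Its lowest, median and highest values were 11.7, 20.5 and 22.2 FPKM in chemoresistant DTP and 21.7, 22.3 and 22.7 FPKM in chemoresistant libraries. They were 19.3, 21.0 and 23.6 FPKM in parental DTP and 14.4, 15.3 and 16.5 FPKM in parental libraries. The lowest value belongs to chemoresistant DTP library 2, and the other 5 of that group lay at 20.3 FPKM or more, above all parental libraries.

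Its level rose in parental DTP against parental cells (0.45 in log2, SE 0.10, adjusted p = 0.000204) and in chemoresistant against parental cells (0.51, SE 0.10, adjusted p = 3.63e-05). IGF1R differed by -0.22 in log2 between chemoresistant DTP and chemoresistant cells (adjusted p = 0.0594), and between the DTP groups by -0.17 (adjusted p = 0.135). Without chemoresistant DTP library 2 the first of these was -0.09 (adjusted p = 0.0818) and the second -0.035 (adjusted p = 0.489), and the group mean was 20.8 ± 0.761 FPKM in place of 19.3 ± 3.79. The first also passed under some settings: with upper-quartile scaling of all libraries at -0.24 (adjusted p = 0.0301), without chemoresistant DTP library 3 at -0.26 (adjusted p = 0.0306), and without library 5 at -0.25 (adjusted p = 0.0492).

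The secreted binding proteins are IGFBP3 and FGFBP1. Promoter windows of both are shown because the 2 genes, both expressed by squamous cells, differ in pattern across the groups and in make-up at the start site. Each window is 300 bases of RefSeq on GRCh38.p14, from 250 before to 50 after the annotated start, printed 5′ to 3′ on the strand of the gene with CG pairs, the sites of DNA methylation, in capitals. The FGFBP1 window, chr4:15938691-15938990 on the minus strand, holds 3 CG pairs and 42.0% G or C. The IGFBP3 window, chr7:45921223-45921522 on the minus strand, holds 36 CG pairs and 74.7% G or C.
FGFBP1: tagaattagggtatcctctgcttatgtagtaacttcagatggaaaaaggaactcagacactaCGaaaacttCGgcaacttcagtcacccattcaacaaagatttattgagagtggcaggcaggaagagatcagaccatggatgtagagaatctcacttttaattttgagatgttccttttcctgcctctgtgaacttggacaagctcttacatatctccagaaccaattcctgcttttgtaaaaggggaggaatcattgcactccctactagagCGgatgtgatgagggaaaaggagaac
IGFBP3: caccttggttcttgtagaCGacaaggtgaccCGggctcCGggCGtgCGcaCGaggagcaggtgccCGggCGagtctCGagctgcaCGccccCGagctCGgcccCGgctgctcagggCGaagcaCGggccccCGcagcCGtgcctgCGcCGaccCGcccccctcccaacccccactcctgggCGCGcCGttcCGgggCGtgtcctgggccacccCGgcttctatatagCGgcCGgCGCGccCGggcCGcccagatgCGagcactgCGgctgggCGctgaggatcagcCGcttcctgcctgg
Over 34796 windows of the same length the median was 14 CG pairs, 24.6% held at most 3 and 12.7% held at least 36. DNA methylation was not measured here.

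IGFBP3, the main IGF carrier of the blood and a gene of keratinocytes, spans chr7:45912245-45921874. The lowest, median and highest IGFBP3 values were 31.6, 32.7 and 34.8 FPKM in chemoresistant DTP and 24.2, 26.0 and 27.7 FPKM in chemoresistant libraries. They were 4.54, 5.12 and 5.76 FPKM in parental DTP and 1.99, 2.51 and 3.35 FPKM in parental libraries. The 4 groups did not overlap, and DTP libraries were the higher in each line.

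IGFBP3 averaged 25.99 ± 1.203 FPKM in chemoresistant and 2.53 ± 0.493 FPKM in parental cells, a ratio of 10.3 (log2 fold change 2.95, SE 0.07, adjusted p = 9.57e-22). Between the DTP groups it averaged 32.8 ± 1.07 FPKM in chemoresistant DTP and 5.11 ± 0.445 FPKM in parental DTP cells, a ratio of 6.42 (2.47, adjusted p = 9.04e-20). With the DTP state it rose by ratios of 1.26 in the chemoresistant line (0.33, adjusted p = 0.000306) and 2.02 in the parental line (0.80, adjusted p = 2.61e-10).

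FGFBP1, a secreted protein of squamous epithelium, spans chr4:15935569-15938740. Its lowest, median and highest values were 15.8, 17.0 and 21.5 FPKM in chemoresistant DTP and 8.27, 8.99 and 10.04 FPKM in chemoresistant libraries. They were 5.20, 5.596 and 6.00 FPKM in parental DTP and 16.9, 17.7 and 19.5 FPKM in parental libraries. The chemoresistant DTP and parental groups overlapped at the top, and chemoresistant and parental DTP cells lay below them, without overlap between these 2.

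FGFBP1 fell to 5.59 ± 0.333 FPKM in parental DTP, against 17.99 ± 1.09 FPKM in parental cells, a ratio of 0.311 (log2 fold change -1.53, SE 0.06, adjusted p = 4.31e-16). It rose to 17.6 ± 2.09 FPKM in chemoresistant DTP, against 9.13 ± 0.770 FPKM in chemoresistant cells, a ratio of 1.93 (0.88, SE 0.06, adjusted p = 3.99e-11; 0.82 without library 2). Against parental cells it was lower in chemoresistant cells (-0.91, adjusted p = 2.27e-12), and against parental DTP cells it was higher in chemoresistant DTP cells (1.49, adjusted p = 3.77e-16). Its transcript is short, so the lowest library rests on 105 reads.

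The change with the DTP state was then compared between the lines, as the chemoresistant change minus the parental change in log2. Of the 9 tested genes 2 had a positive difference that passed and 5 a negative one. Of all tested genes 20.5% were positive, 43.4% negative and 63.8% either, around a median of -0.17. FGFBP1 differed by 2.40 (SE 0.09, adjusted p = 9.9e-17) and FGFR2 by -1.18 (SE 0.06, adjusted p = 4.05e-14), and in both the 2 lines changed in opposite directions. AXL differed by 0.76 (adjusted p = 1.28e-06), with a fall in the parental line and values under 1 FPKM in both groups of the chemoresistant line. IGF1R differed by -0.67 (adjusted p = 0.000119), or -0.54 without chemoresistant DTP library 2. MET differed by -0.55 (adjusted p = 0.000154), or -0.45 without that library. IGFBP3 differed by -0.48 (adjusted p = 0.00012) and FGFR1 by -0.29 (adjusted p = 0.0001).

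EPHA2 and FGFR3 did not pass, with differences of -0.14 (adjusted p = 0.18) and 0.13 (adjusted p = 0.289). Relative log expression scaling took the median of all genes to -0.01 and gave 3 positive and 5 negative differences, FGFR3 passing at 0.31 (adjusted p = 0.0176). The shares of all genes above are without that scaling and do not match these counts. FGFR3 also passed with GC content corrected (0.31, adjusted p = 0.0101). In limma voom on recovered reads, an alternative chosen after seeing the data, it passed with relative log expression factors (0.53, adjusted p = 0.000744) and with library totals (0.32, adjusted p = 0.0302). Without chemoresistant DTP library 2 it was 0.20 and did not pass (adjusted p = 0.0562). With the GC content corrected, the difference of FGFR1 was -0.12 and did not pass (adjusted p = 0.0508).

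**Figure D4:**
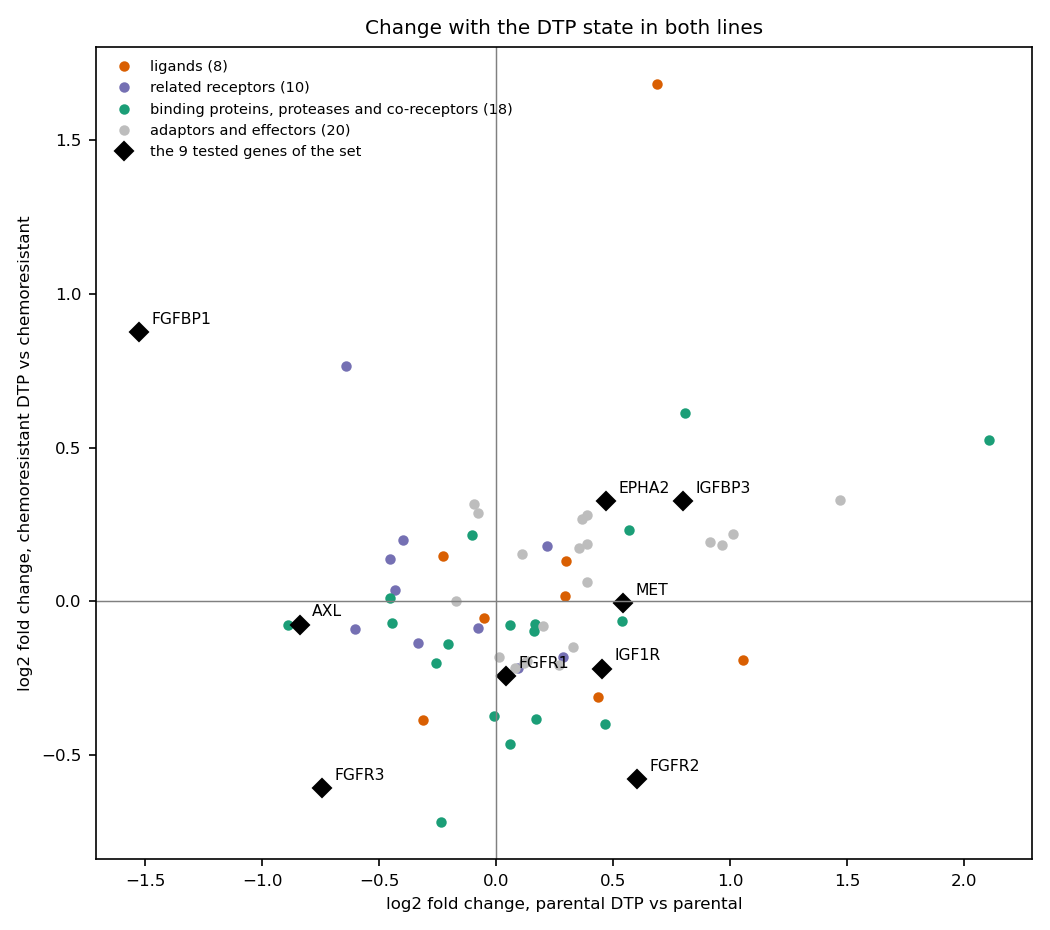
Log2 fold change with the DTP state in the parental line (x axis) and in the chemoresistant line (y axis) for the 9 tested genes of the set (black diamonds) and the tested genes of 4 related lists (coloured points). FGFBP1 is in the upper left, FGFR2 in the lower right, and EPHA2 and IGFBP3 rose in both lines.

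Ligands of these receptors were largely scarce, and 8 of 30 reached the filter. HGF had 4 reads over the chemoresistant DTP group, 2 over the chemoresistant, 18 over the parental DTP and 19 over the parental group, and IGF1 had 2 or 3 reads in each group. IGF2 had 72 reads over the chemoresistant DTP, 42 over the chemoresistant, 7 over the parental DTP and 6 over the parental group. Of the 72, library 5 alone held 53, and the median of that group was 2 reads per library. INS, the insulin gene, was at 0 throughout. These 4 genes were under the filter and their differences were not tested. Of the 8, 5 rose and 1 fell in parental DTP against parental (5 and 3 after relative log expression scaling), with a median log2 fold change of 0.30 beside 0.14 over all genes. Within the chemoresistant line 2 rose and 3 fell in DTP cells. In chemoresistant against parental cells 7 rose and 1 fell (6 and 1 after that scaling). Of the same 8, 6 rose and 1 fell in chemoresistant DTP against parental DTP cells. In the same order, 45.8, 20.5, 48.2 and 29.5% of all tested genes rose and 19.7, 27.4, 29.4 and 32.3% fell.

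EFNA1, an ephrin-A ligand of EPHA2, averaged 15.6 FPKM in chemoresistant DTP, 18.0 in chemoresistant, 8.23 in parental DTP and 3.43 FPKM in parental cells. It rose in parental DTP against parental cells (log2 fold change 1.06, adjusted p = 3.6e-11) and in chemoresistant against parental cells (2.10, adjusted p = 1.73e-17). GAS6, the ligand of AXL and MERTK, averaged 2.86 FPKM in chemoresistant DTP, 4.03 in chemoresistant, 1.48 in parental DTP and 2.07 FPKM in parental cells. It fell with the DTP state in both lines, by 0.39 on the log2 scale in the chemoresistant and by 0.31 in the parental line. FGF1, which binds all FGF receptors, was lower in chemoresistant cells (0.270 FPKM) than in parental cells (1.82 FPKM; log2 fold change -1.15). FGF21, a hormone-like FGF that needs a klotho co-receptor, was at 5.31 FPKM in chemoresistant DTP and 0.937 FPKM in chemoresistant cells (1.68, adjusted p = 2.12e-11). It also rose in parental DTP (0.688 FPKM) against parental cells (0.0324 FPKM, on 6 reads over the group), by 0.69 (adjusted p = 1.53e-05). The klotho genes KL and KLB stayed under the filter in every group.

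Related receptors reached the filter in 10 of 20 genes. In parental DTP against parental cells 2 rose and 6 fell (1 and 7 after relative log expression scaling), with a median of -0.37 beside 0.14 over all genes. Against chemoresistant cells, 1 rose and 3 fell in chemoresistant DTP cells. In chemoresistant against parental cells 4 rose and 3 fell, or 2 and 6 after that scaling, so the split depended on it. Between the DTP groups 6 rose and 0 fell. Over all tested genes, in the same order, 45.8, 20.5, 48.2 and 29.5% rose and 19.7, 27.4, 29.4 and 32.3% fell. EPHB3, a receptor of ephrin-B ligands, fell to 2.92 FPKM in parental DTP, against 5.12 FPKM in parental cells (log2 fold change -0.64). It rose to 11.6 FPKM in chemoresistant DTP, against 6.43 FPKM in chemoresistant cells (0.77), the same pair of directions as FGFBP1. INSR, the insulin receptor and close relative of IGF1R, was higher in chemoresistant cells (2.34 FPKM) than in parental cells (0.695 FPKM; log2 fold change 0.98). FGFR4 fell to 6.29 FPKM in parental DTP, against 10.05 FPKM in parental cells (-0.60).

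Binding proteins, proteases and co-receptors reached the filter in 18 of 26 genes. In parental DTP against parental cells 8 rose and 3 fell (6 and 7 after relative log expression scaling). Of the same 18, 4 rose and 5 fell in chemoresistant DTP against chemoresistant cells. In chemoresistant against parental cells 11 rose and 3 fell (8 and 4 after that scaling), and between the DTP groups 8 rose and 5 fell. Shares of all tested genes, in the same order, were 45.8, 20.5, 48.2 and 29.5% for rises and 19.7, 27.4, 29.4 and 32.3% for falls. STC2, a secreted inhibitor of the protease that frees IGF from its binding proteins, averaged 86.7 FPKM in chemoresistant DTP, 59.8 in chemoresistant, 62.4 in parental DTP and 13.7 FPKM in parental cells. It rose in both DTP states (log2 fold changes of 0.53 and 2.11 in the chemoresistant and the parental line) and in chemoresistant against parental cells (2.05). IGFBP4, another IGF carrier, ran against IGFBP3, with 3.23 FPKM in chemoresistant DTP and 3.79 in chemoresistant cells, against 14.2 in parental DTP and 17.2 in parental cells. SDC1, a heparan sulfate proteoglycan that presents FGFs, fell to 48.1 FPKM in parental DTP, against 89.7 FPKM in parental cells (-0.89). SDC4, another such proteoglycan, rose to 16.4 FPKM in parental DTP, against 8.81 FPKM in parental cells (0.81).

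Adaptors and effectors reached the filter in 20 of 22 genes, and 14 rose and 1 fell in parental DTP against parental cells, or 9 and 4 after relative log expression scaling. Of the same 20, 7 rose and 5 fell in chemoresistant DTP against chemoresistant cells (10 and 6 after that scaling). In chemoresistant against parental cells 8 rose and 5 fell (8 and 8), and between the DTP groups 6 rose and 6 fell. Among all tested genes, in the same order, 45.8, 20.5, 48.2 and 29.5% rose and 19.7, 27.4, 29.4 and 32.3% fell. GRB10, an adaptor that damps insulin and IGF1 receptor signalling, rose to 10.2 FPKM in parental DTP, against 3.06 FPKM in parental cells (log2 fold change 1.47). The ubiquitin ligase CBLB, which helps to clear active receptors, rose to 5.41 FPKM in parental DTP, against 2.18 FPKM in parental cells (1.01). The docking protein GAB2 rose to 5.44 FPKM in parental DTP, against 2.29 FPKM in parental cells (0.97). In chemoresistant against parental cells GRB10 (1.49) and CBLB (0.99) also rose, while GAB2 did not pass (0.14). CBL, of the same list, rose in parental DTP against parental cells (0.39) but fell in chemoresistant against parental cells (-1.15). For the change with the DTP state between the lines, passing positive and negative differences numbered 2 and 4 for ligands, 6 and 2 for related receptors, 3 and 10 for binding proteins and co-receptors and 2 and 11 for adaptors. After relative log expression scaling they numbered 2 and 2 for ligands, 6 and 1 for related receptors, 3 and 6 for binding proteins and co-receptors and 4 and 8 for adaptors. Before that scaling, 20.5% of all tested genes had a passing positive difference and 43.4% a negative one. Nuclear-retained RNAs, 2 of 3 tested, had summed levels with medians of 52.5 FPKM in chemoresistant DTP, 41.7 in chemoresistant, 55.8 in parental DTP and 28.8 FPKM in parental libraries. In chemoresistant against parental cells MALAT1 fell (log2 fold change -0.52) while NEAT1 rose (1.68). They split likewise between the DTP groups (-0.57 and 0.37). The part of these RNAs in the results was not tested.

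Genes with the pattern most like each member were sought among 7282 genes by the root mean square difference of centred log2(FPKM + 1) over the 24 libraries. For AXL these were H2AX, a histone variant of DNA damage marking (difference 0.150), and RASL10B (0.174), beside a spread of AXL itself of 0.972. AXL averaged 0.618 FPKM in chemoresistant and 6.54 FPKM in parental cells, against 37.4 and 205.8 FPKM for H2AX. Their likeness thus rests partly on the added 1 FPKM, which shrinks the change of AXL. For MET they were YAP1, a transcriptional co-activator of the Hippo pathway (0.061), and the fatty acid desaturase FADS1 (0.083), beside a spread of 0.432. YAP1 averaged 23.8 FPKM in chemoresistant DTP, 22.7 in chemoresistant, 46.7 in parental DTP and 32.6 FPKM in parental cells, the same order of groups as MET. For IGFBP3 they were GCLC, a subunit of the enzyme of glutathione synthesis (0.208), and the tight junction protein CLDN7 (0.222), beside 1.39. FGFBP1 was most alike to PHLDA2 (0.202) and the carbonic anhydrase CA2 (0.212), beside 0.647. PHLDA2 averaged 26.6 FPKM in chemoresistant DTP and 13.1 in chemoresistant cells, and 8.36 in parental DTP and 21.9 FPKM in parental cells. FGFR3 was most alike to SLC9A3R1 (0.254) and TBC1D2 (0.295), beside 0.949. EPHA2 was nearest to ZNF598 (0.097) and PAX9 (0.106), beside 0.251, and IGF1R to CRTC3 (0.083), beside 0.252.

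Promoter windows were at hand for 9 of the 10 genes, 14 windows in all, and FGFR1 was not used here. They were searched on both strands for 3 motifs. TGANTCA, the AP-1 motif, was in none of the 14 windows and in 7.73% of all 34796. TGATGNAA, bound by ATF4 with C/EBP proteins, matched 1 of the 5 FGFR2 windows, chr10:121531265-121531564 on the minus strand, as TGATGAAA from base -191 counted from the start site, and 3.63% of all. TGACNNNGC, the core of the NRF2 motif, matched 1 of the 2 AXL windows, chr19:41226505-41226804 on the plus strand, as GCAGGGTCA from base -47 on the opposite strand, and 13.3% of all. Both matched windows lie inside the gene spans given above, at other annotated starts. The AXL and FGFR2 windows at the 5′ ends of those spans held none of the 3 motifs. Which start was in use was not tested. A match describes letters only, and binding was not measured.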

How the data were processed

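RNA sequencing of 24 libraries, 6 per group, was analysed; groups and replicate numbers came from the sample labels. The authors deposited FPKM values, per the file headers, in 1 table with a column per library. The submitters' processing notes name GRCh38; no source used here gives the aligner, counting tool, annotation or strandedness. Of the table, 23 leftover text rows without values were left out, and 20150 of 61251 genes were at 0 in all libraries. Whole reads were recovered from the FPKM for all 41101 others, within 0.02 reads, and served for depth and for limma voom. Gene IDs were matched to GENCODE release 29 (95.24%).

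limma 3.58.1 in R 4.3.3 was fitted with a mean-variance trend to log2(FPKM + 1), with 4 group means over 24 libraries, on the 13729 genes that averaged 1 FPKM or more in a group. Tests were two-sided, adjusted within each comparison over all of these genes. The fit was also run on simulated counts, with an outcome not reported here. Those counts lacked the deviations with GC content and gene length of these libraries, so the run does not bear on them. MERTK, under the filter, was compared by exact permutation with scipy 1.17.1.

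The members, the 4 related lists, the markers and the alternatives were chosen with earlier results of these data known. All members were named. From each list, genes came from up to 3 per comparison with the largest change past the threshold whose higher group averaged 1 FPKM or more; the text gives a part of them. The 2 genes most like a member were sought for members that reached 5 FPKM in a group; 1 of these genes is not reported here. Alternatives were a pseudocount of 0.1, other filters, scaling by relative log expression or upper quartiles, correction for GC content, the 12 libraries compared, the replicate number as a block, single libraries left out, and limma voom on the recovered reads. Promoters came from RefSeq, build GRCh38.p14.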

Additional observations from a re-analysis of the deposited data

Results flagged for a closer look

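Of 40 groups of 6 values (10 genes in 4 groups), 4 held a library far from the other 5 by Dixon's criterion, where chance gives about 1 in 20. In chemoresistant DTP cells, library 2 was the lowest for MET (6.52 FPKM, next 9.45), for FGFR3 (9.11 FPKM, next 12.05) and for IGF1R (11.7 FPKM, next 20.3). In parental DTP cells, library 6 was the lowest for MET (18.7 FPKM, next 20.1).

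The change with the DTP state differed between the lines, by the limma test of the difference itself, for 7 of the 9 tested genes. The same test passed for 63.8% of all tested genes. As chemoresistant change minus parental change in log2, the values were 2.40 for FGFBP1 (0.88 and -1.53 in the chemoresistant and the parental line), -1.18 for FGFR2 (-0.58 and 0.60), 0.76 for AXL (-0.08 and -0.84) and -0.67 for IGF1R (-0.22 and 0.45). They were -0.55 for MET (-0.01 and 0.54), -0.48 for IGFBP3 (0.33 and 0.80) and -0.29 for FGFR1 (-0.24 and 0.04).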

How the results depend on the processing

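Over 35 alternative settings, 1540 of 1556 results of single members kept their side of the threshold and, where called, their direction; 4 fell below it, 12 came above it and 0 reversed. The 16 that moved concern EPHA2 between the lines, IGF1R in the chemoresistant line, and the difference between the lines of FGFR1 and FGFR3; the cause was not tested. The number of members changed stayed within 1.5 times under every setting. With 1 library left out it was 8 to 8 in parental DTP against parental, 6 to 7 in chemoresistant DTP against chemoresistant, 9 to 9 in chemoresistant against parental, 7 to 8 between the DTP groups and 7 to 7 for the difference between the lines. Without parental DTP libraries 5 and 6 no call on a member changed. With the replicate number as a block the counts were 8, 6, 9, 7 and 7 in the same order, and no call changed. Deviations of libraries with the same number correlated at -0.39 to 0.40, above 0.1 in 12 of 36 pairs. In 4 of 36 the correlation was highest for the same number. These correlations cannot settle whether such libraries share a culture or batch, as deviations also went with GC content (Spearman rho -0.64 to 0.655). Of the list genes, the difference of FGF21 between the lines, 1.00, was -0.12 with a pseudocount of 0.1 and, in limma voom on recovered reads, -1.40 with relative log expression factors and -1.59 with library totals; it had 6 reads over the parental group. The limma voom settings were added after the data were seen. The planned edgeR and DESeq2 alternatives were not run, as the deposited unit is FPKM. MERTK was fitted with no filter only, and at a filter of 5 FPKM 7 members were left. Among the members, depth limits MERTK, with 9 reads in its lowest library.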
